A study of Mus musculus with 6 samples.

Results

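The genes described here are 31 genes of the B lymphocyte lineage, named by symbol and ordered by the stage at which each is used, and their RNA was compared between the inner bone surface and the flushed marrow of the mouse femur. They are represented by 69 of the 45101 probe sets on the arrays and by 31 of the 18193 genes tested. Each gene is read from its brightest probe set, by the mean over the arrays, among those naming that gene alone, and 17 of the 31 have more than 1 probe set. The animals were 3 C57BL/6 males, 8 weeks old and given saline intraperitoneally, and each region has 3 arrays, lettered A, B and C. Central RNA is from marrow cells washed out of the femoral shaft and pelleted before lysis in Trizol. Endosteal RNA is what Trizol then released from the emptied shaft, after muscle and periosteum had been scraped off and the metaphyses cut away. No genotype other than the strain and no treatment other than saline is given for either region, and the labels do not say that a letter marks 1 mouse. The p-values measure the spread between these arrays only.

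B lymphocytes are made in the marrow of adult mammals. Pro-B cells cut and rejoin the immunoglobulin heavy chain gene, pre-B cells test the new heavy chain with a surrogate light chain, and immature cells carry a complete receptor to the surface and leave for the spleen, from which mature recirculating cells return to the marrow. Early stages depend on factors such as IL7 and CXCL12 from stromal cells, and the transcription factors encoded by Tcf3, Ebf1, Foxo1 and Pax5 commit the cells to the lineage and keep them there.

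Endosteal RNA carried less of the transcripts of the B cell receptor and of several transcription factors. Of the 6 genes of the pro-B and pre-B stages 0 passed, and 2 passed with an intensity trend. Among genes above the median level, which leave out Rag2, 1 of 5 passed. With the trend 9.31% of all genes were called lower, and among genes above the median level 19.0% were. Of the 31 genes, 9 were called lower in endosteal RNA and 0 higher (limma, Benjamini-Hochberg adjusted p under 0.05 over all 18193 genes), where 4.02% of all genes were called lower and 7.92% higher. The 9 were Spib, Bach2, Cd79a, Blk, Ms4a1, Cd79b, Cd22, Cd37 and Bcl11a, and their endosteal levels were between 1.77-fold and 3.82-fold lower. The median log2 change of the 31 genes, on the scale log2(signal + 16), was -0.85, and that of all genes was 0.10. The 3 endosteal arrays all lay below the 3 central arrays for 17 of the 31 genes, against 15.4% of all genes, and above them for 0, against 22.3%. At an unadjusted p under 0.05 there were 19 of the 31, a count for which no share of all genes is given. Of all genes 11.9% passed in either direction even after adjustment, so the unadjusted share is at least that. The number called lower was 2 without central array A, 0 without central array B, 1 without central array C, 2 without endosteal array A, 3 without endosteal array B and 10 without endosteal array C. Over these 6 fits Spib was called in 5 and Cd79a in 4, Ms4a1, Bach2, Cd79b, Blk and Cd37 in 1 each (without endosteal array C), and Cd22 and Bcl11a in 0. With the letter as a replicate block the number called lower was 2 (Spib and Blk), and there the 9 genes had adjusted p from 0.0499 to 0.0902. Calls fell over all genes as well, with 0.555% to 1.69% lower when 1 array was left out. With the block 6 of the 18193 genes (0.0330%) were called lower.

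**Figure D1:**
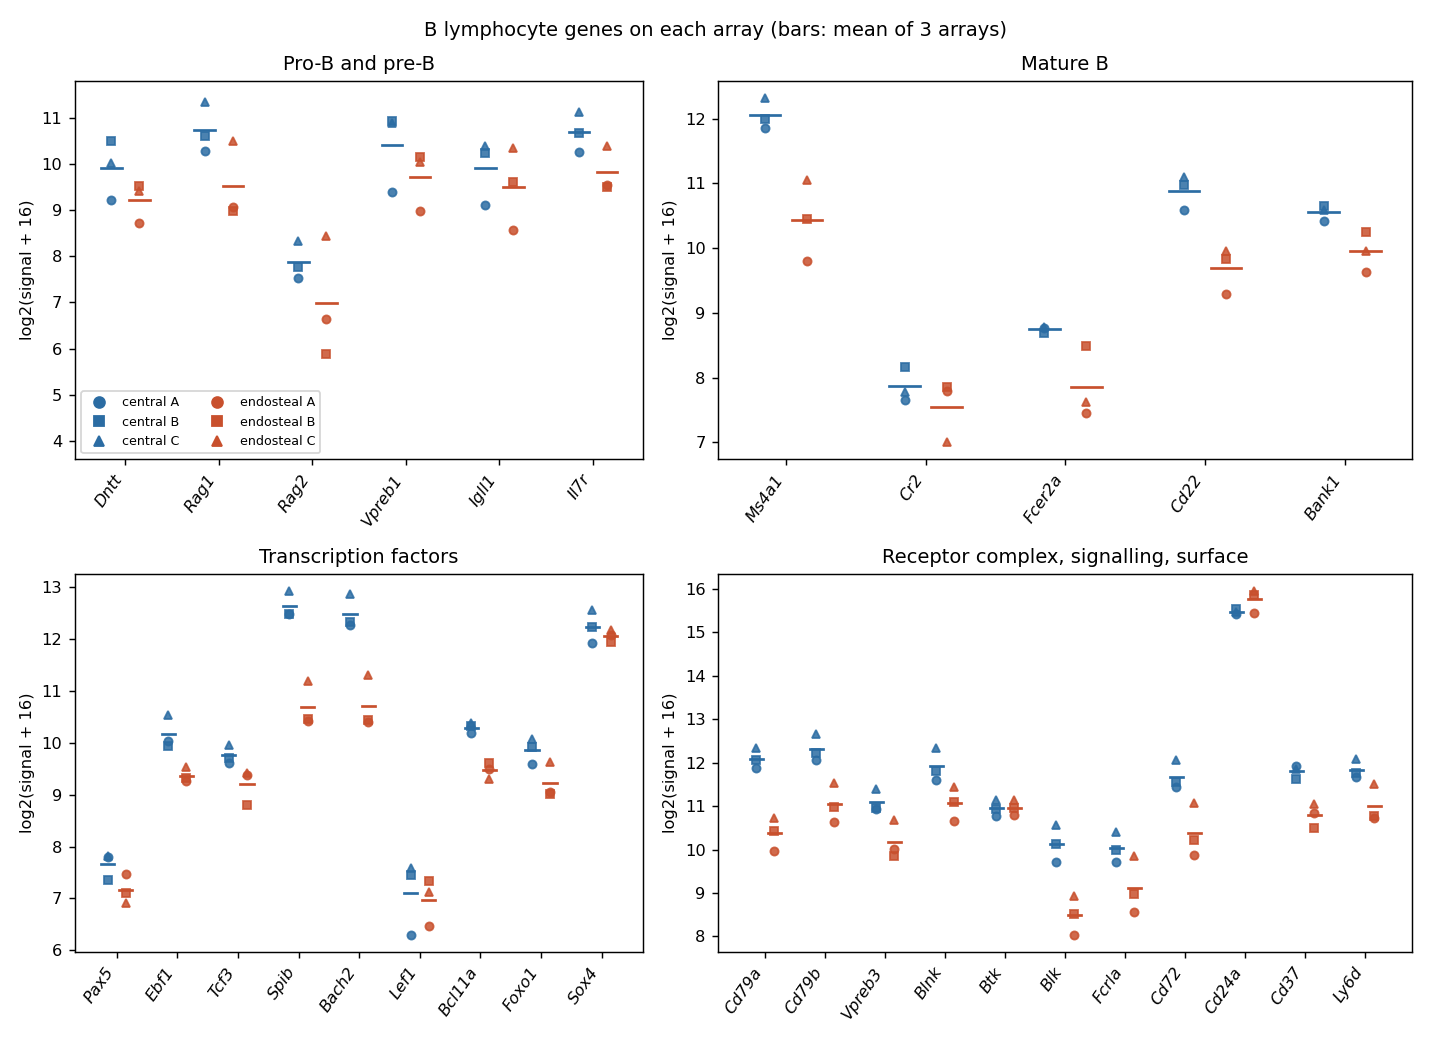
Level of each of the 31 genes on each array, as log2(signal + 16) on the vertical axis, in 4 panels by role, with central arrays in blue, endosteal arrays in red, a marker shape for each letter and a bar at the mean of 3 arrays. The endosteal points lie below all central points for Spib, Bach2, Cd79a and Ms4a1, while the points of the 2 regions interleave for each of the 6 pro-B and pre-B genes.

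The direction of the smaller changes depended on how the arrays were scaled. The deposited values have nearly the same trimmed mean on each array, and the values in the text keep that scale. When the arrays were instead scaled to the spiked poly-A control probe sets, whose mean log2 level was 9.71 to 10.06 on central and 8.96 to 9.07 on endosteal arrays, the median of all genes moved to 0.97 and that of the 31 genes to 0.013. Relative to the median of all genes the 31 genes had a median of -0.95 on both scales. That equality is fixed in advance, since the scaling shifts every gene of an array by the same log2 amount. With the poly-A scaling 14 genes turned from lower to higher, namely Dntt, Vpreb1, Igll1, Cr2, Bank1, Pax5, Ebf1, Tcf3, Lef1, Bcl11a, Foxo1, Sox4, Blnk and Ly6d, of which Bcl11a had been called. Spib and Cd79a remained called lower, and Btk and Cd24a were called higher. On that scaling 0.209% of all genes were called lower and 59.0% higher. When arrays were centred on 10 genes that all leukocytes express, the median of the 31 genes was -0.48, Cr2, Lef1 and Sox4 turned higher, and Spib, Bach2 and Cd79a were called lower. With that centring 1.27% of all genes were called lower.

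**Figure D2:**
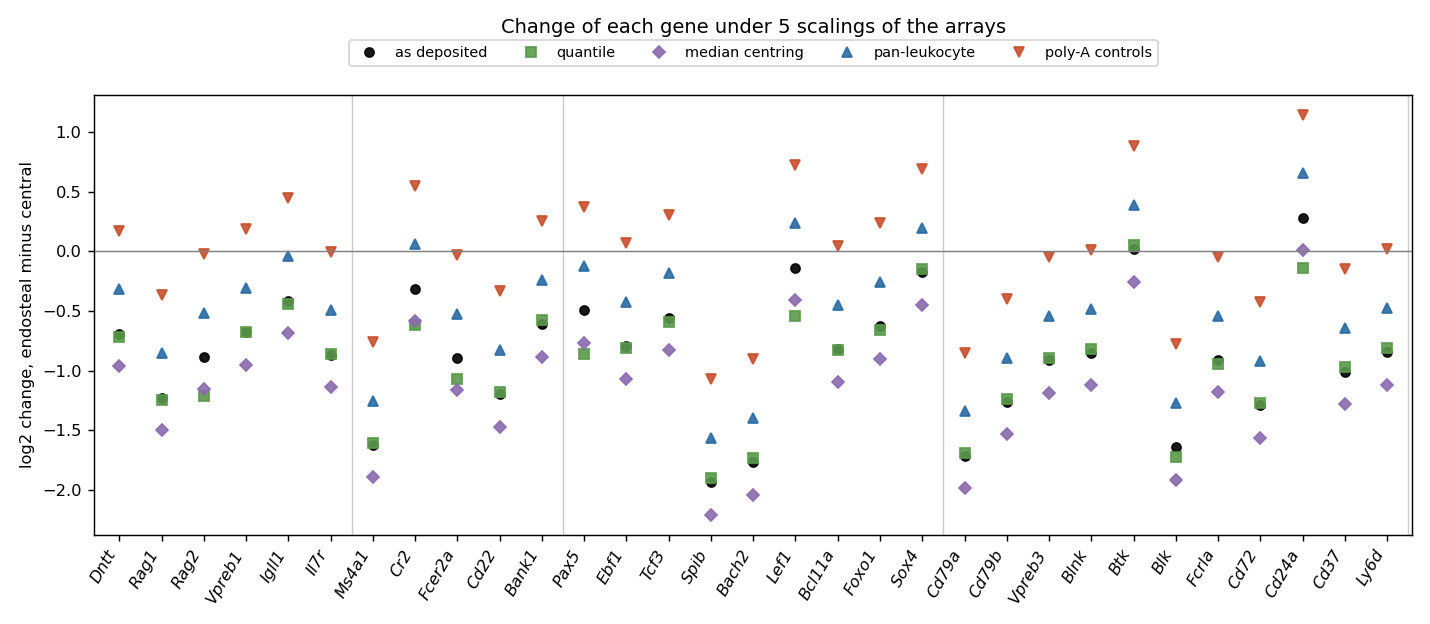
Log2 change (endosteal minus central, vertical axis) of each gene under 5 scalings of the arrays, with grey lines between the 4 roles. The poly-A scaling puts 16 of the 31 genes above 0 where the deposited scaling puts 2.

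The pro-B and pre-B genes were described first. Of the 6, 0 were called in either direction by limma, and 1 had an unadjusted p under 0.05, with no share of all genes given there. After adjustment 11.9% of all genes passed. The intensity trend in limma called 2 of the 6 (Rag1 and Il7r) lower, against 9.31% of all genes. Their log2 changes ran from -1.23 to -0.41 with a median of -0.78, and the endosteal and central arrays overlapped for each of the 6. Dntt encodes terminal transferase, which adds bases at heavy chain joints in pro-B cells. Its signal was 584, 1428 and 1026 centrally, on arrays A, B and C in turn, and 408, 720 and 671 endosteally. Array A was the lowest in either region, and 2 of the 3 endosteal values lay above central array A. The log2 change was -0.69 (SE 0.39, 95% interval -1.66 to 0.27, adjusted p = 0.304). The change was 0.17 with the poly-A scaling. Other probe sets of Dntt changed by -0.32 and 0.28, and the mean of its 3 probe sets by -0.24 (adjusted p = 0.687).

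Rag1 and Rag2 encode the recombinase that cuts immunoglobulin genes. The signal of Rag1 was 1227, 1544 and 2601 on the central arrays and 523, 492 and 1428 on the endosteal arrays, in the order A, B, C that is kept throughout. Array C was the highest in both regions, and endosteal C lay above central A. The log2 change of Rag1 was -1.23 (SE 0.50, 95% interval -2.46 to 0.01, adjusted p = 0.174). Rag2 had 168, 202 and 306 in the central samples and 83.7, 43.3 and 331 in the endosteal ones, so that endosteal array C held the highest value of all 6. Its mean level was below the median of all genes, and its log2 change of -0.89 had a 95% interval from -2.55 to 0.78 (adjusted p = 0.442). When 1 array was left out, the change of Rag2 ran from -1.61 (without endosteal array C) to -0.34 (without endosteal array B).

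Vpreb1 and Igll1 encode the proteins of the surrogate light chain, which pairs with a new heavy chain in the pre-B cell receptor. Vpreb1 had signals of 661, 1940 and 1879 in the central samples and 490, 1122 and 1047 in the endosteal ones. Array A stood apart from B and C in both regions, by more than the regions differed. Endosteal minus central, the log2 change was -0.68 (SE 0.54, 95% interval -2.00 to 0.65, adjusted p = 0.460), and 0.19 with the poly-A scaling. Igll1 had 541, 1201 and 1338 in central and 365, 761 and 1297 in endosteal RNA, with array A again lowest in both regions and the C arrays nearly level. The log2 change of Igll1 was -0.41 (SE 0.56, 95% interval -1.80 to 0.97, adjusted p = 0.674), and 0.45 with the poly-A scaling. The probe set of Igll1 is of the kind whose probes can match related sequences.

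Il7r encodes the receptor chain through which IL7 sustains pro-B and pre-B cells, and T cells also use it. Its signal was 1215, 1611 and 2218 in the central samples and 734, 712 and 1336 in the endosteal ones. Only endosteal array C reached into the central range. The log2 change was -0.87 (SE 0.34, 95% interval -1.70 to -0.03, adjusted p = 0.159), and -0.0027 with the poly-A scaling. A further probe set of Il7r had signals of 519 ± 54.0 and 251 ± 41.3 (SD, n = 3) and passed in a limma fit over 34945 probe sets (log2 change -1.01, SE 0.18, adjusted p = 0.0325), where 2.08% were called lower. It was singled out after its values were seen.

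Vpreb1 and Igll1 are neighbours on chromosome 16, and their starts lie 5270 bases apart on the minus strand in the RefSeq annotation of GRCm38.p6. Their promoters are shown beside that of Cd79a, a receptor gene that was called lower, whose product serves the pre-B cell receptor as well as the mature one. Cd79a is among the 3 genes with the largest called decrease, and the early pair was chosen after its values were seen. Each window runs from 250 bases before to 50 bases after the start, 5′ to 3′ on the gene's own strand, at chr16:16869206-16869505 for Vpreb1, chr16:16863936-16864235 for Igll1 and chr7:24897247-24897546 for Cd79a, the last on the plus strand. Capitals mark matches on either strand to the E-box motifs CAGGTG and CAGCTG, which E2A proteins of Tcf3 bind, and to AGGAAGT, a motif of ETS factors such as the one encoded by Spib.
Vpreb1: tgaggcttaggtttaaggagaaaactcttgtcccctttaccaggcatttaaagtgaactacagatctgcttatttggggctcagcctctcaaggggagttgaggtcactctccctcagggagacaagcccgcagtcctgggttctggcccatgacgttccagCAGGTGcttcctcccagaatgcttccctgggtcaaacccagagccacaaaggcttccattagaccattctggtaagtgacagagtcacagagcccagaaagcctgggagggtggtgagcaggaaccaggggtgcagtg
Igll1: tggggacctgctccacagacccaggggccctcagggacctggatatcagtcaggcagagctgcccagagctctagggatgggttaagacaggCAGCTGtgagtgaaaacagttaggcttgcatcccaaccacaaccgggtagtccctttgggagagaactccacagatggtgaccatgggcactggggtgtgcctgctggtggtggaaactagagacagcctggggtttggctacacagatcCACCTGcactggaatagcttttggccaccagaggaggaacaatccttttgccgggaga
Cd79a: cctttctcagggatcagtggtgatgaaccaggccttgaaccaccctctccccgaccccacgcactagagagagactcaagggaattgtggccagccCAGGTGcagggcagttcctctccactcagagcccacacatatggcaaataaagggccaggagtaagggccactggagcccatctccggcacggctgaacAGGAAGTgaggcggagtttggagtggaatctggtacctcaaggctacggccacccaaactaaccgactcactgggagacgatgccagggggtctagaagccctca
The Vpreb1 window held a CAGGTG from -88 to -83, counted from the start. The Igll1 window held CAGCTG from -158 to -153 and the reverse complement of CAGGTG from -8 to -3. The Cd79a window held CAGGTG from -154 to -149 and AGGAAGT from -55 to -49. Windows were found for 26 of the 31 genes and numbered 32, since some genes have several starts. Of the 32 windows, 37.5% held CAGGTG against 20.2% of all 32851 windows, and 15.6% held CAGCTG against 16.3%. AGGAAGT stood in 25% against 9.35%. The palindromic motif of EBF factors stood in 6.25% (those of Cd22 and Foxo1) against 0.904%, and the octamer ATGCAAAT in 6.25% (Vpreb3 and Blnk) against 1.74%. The forkhead motif GTAAACA had 0 matches, against 3.65% of all windows. The searches covered both strands and no motif overlaps another within these windows. The shares are descriptions of letters in short windows.

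The mature B cell genes gave 2 called lower of 5 and 0 higher, with a median log2 change of -0.89. Ms4a1 encodes CD20, a surface protein that appears late in the pre-B stage and stays on mature cells. Its signal was 3677, 4086 and 5084 in the central samples and 873, 1383 and 2112 in the endosteal ones. Every endosteal value was below every central value. The endosteal level was 3.08-fold lower (log2 change -1.62, SE 0.34, adjusted p = 0.0389), and the change ran from -1.93 to -1.30 when 1 array was left out. A further probe set of Ms4a1 changed by -1.41.

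Cd22 encodes an inhibitory receptor of the B cell surface that binds sialic acid. Its signal was 1522, 1990 and 2180 in central and 611, 891 and 973 in endosteal RNA, with no overlap. Endosteal minus central, the log2 change was -1.20 (SE 0.24, adjusted p = 0.0337), and the differences between arrays of the same letter were -1.29, -1.14 and -1.15. Its call ended when each of the 6 arrays was left out in turn (adjusted p from 0.0549 to 0.108).

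Fcer2a encodes CD23, the low-affinity IgE receptor of follicular B cells. Its signal was 422, 396 and 424 in central and 159, 344 and 180 in endosteal RNA. The regions did not overlap, although endosteal array B was nearly as high as the central arrays. The log2 change was -0.89 (SE 0.29, adjusted p = 0.108), and it was called in 1 of the 6 fits that left out an array, without endosteal array B (-1.21, adjusted p = 0.0283). In the other 5 fits it ran from -0.92 to -0.69, with adjusted p from 0.209 to 0.239. Bank1, a scaffold of receptor signalling, had 1360, 1598 and 1533 in central and 781, 1202 and 980 in endosteal RNA, again without overlap. Its log2 change was -0.61 (SE 0.19, adjusted p = 0.0992), and 0.25 with the poly-A scaling.

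Cr2 encodes complement receptor CD21, which marginal zone and follicular B cells and follicular dendritic cells carry. Its signals of 186, 270 and 203 in central and 206, 215 and 112 in endosteal RNA overlapped, and its mean level lay just below the median of all genes. Endosteal minus central, the log2 change was -0.31 (95% interval -1.01 to 0.39, adjusted p = 0.518). It was 0.057 when centred on leukocyte genes and 0.55 with the poly-A scaling. Of 4 genes of follicular dendritic cells and lymph node stroma, 2 (Clu and Mfge8) were called higher and 0 lower (median 0.99). Cxcl13 and Madcam1 were dim, with mean signals of 36.1 and 32.6 in central and 85.4 and 56.7 in endosteal RNA. Their regions overlapped (adjusted p = 0.274 and 0.729). The number called was 0 without central B, without endosteal B and with the replicate block, and 1 without central A, endosteal A or endosteal C. The part of these 4 genes' cells in the Cr2 values was not tested.

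**Figure D3:**
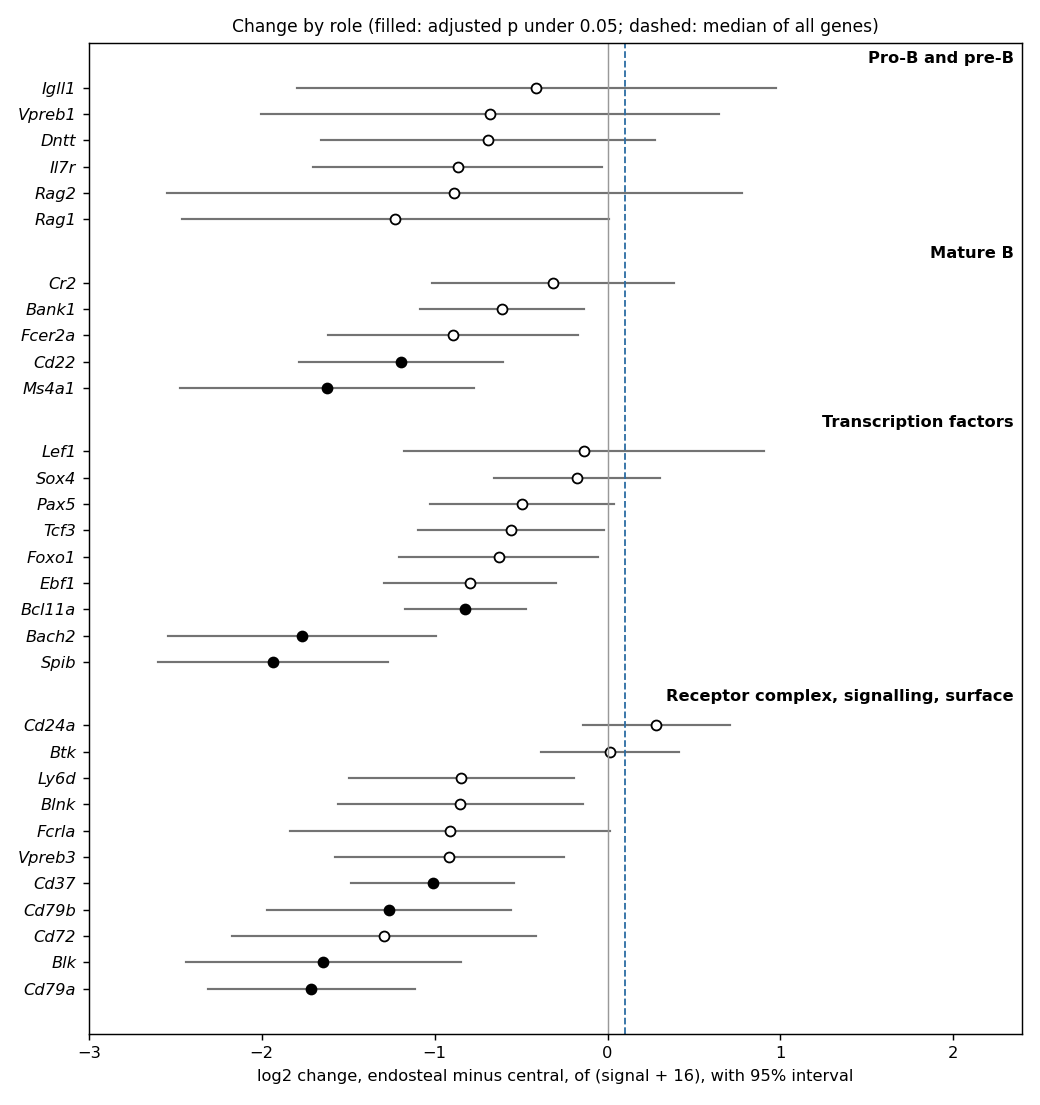
Log2 change, endosteal minus central, of each gene on the horizontal axis by role, with its 95% interval, filled where the adjusted p is under 0.05 and with a dashed line at the median of all genes (0.10). The intervals of 5 of the 6 pro-B and pre-B genes reach past 0, and the 3 lowest genes are Spib, Bach2 and Cd79a. With the poly-A scaling 14 of the genes left of 0 lay right of it.

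The median of the 5 mature genes minus that of the 6 pro-B and pre-B genes was -0.11 on the log2 scale, where the same difference had an SD of 0.49 between arrays of a region. The sign of this difference turned with the arrays used, from -0.44 without endosteal B to 0.19 without central A and 0.22 without endosteal C, and it was -0.35 among genes above the median level. The SD of log2(signal + 16) between arrays of a region had a median of 0.74 over the pro-B and pre-B genes, 0.38 over the mature genes, 0.36 over the receptor, signalling and other surface genes and 0.28 over the transcription factors. The values overlapped between roles, at 0.47 to 0.97 for single pro-B and pre-B genes, 0.23 to 0.48 for mature genes, 0.17 to 0.52 for receptor and signalling genes and 0.13 to 0.60 for transcription factors. The median was 0.17 over the 9070 other genes at or above the median level. The number of arrays limits what these spreads can show, and no test was made between the groups of genes.

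The receptor and signalling genes gave 4 called lower of 11 and 0 higher, with a median of -0.91. Cd79a and Cd79b encode the chains that carry the signal of the B cell receptor and of the pre-B cell receptor. Cd79a had signals of 3734, 4245 and 5188 in central and 992, 1358 and 1685 in endosteal RNA. Every endosteal array was well below the lowest central array. Its level was 3.28-fold lower (log2 change -1.71, SE 0.24, adjusted p = 0.0147), and it was called without central A, endosteal A, endosteal B and endosteal C in turn. Cd79b had 4237, 4767 and 6420 in central and 1576, 2000 and 2936 in endosteal RNA, also without overlap. Its log2 change was -1.26 (SE 0.28, adjusted p = 0.0447), and its adjusted p was 0.0544 after quantile normalisation.

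Blk encodes a SRC family kinase of B cells. Its signal was 819, 1105 and 1511 in central and 247, 348 and 474 in endosteal RNA. Array A was lowest and array C highest in each region, and the regions did not overlap. The differences between arrays of the same letter were -1.67, -1.62 and -1.64, and the log2 change was -1.64 (SE 0.32, adjusted p = 0.0324; 0.0499 with the replicate block). Blnk, the adaptor that links the receptor to calcium signalling, had 3068, 3590 and 5145 against 1594, 2169 and 2762. The regions did not overlap, but the log2 change of -0.85 (SE 0.29) had an adjusted p of 0.116, and was 0.013 with the poly-A scaling.

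Btk encodes the kinase whose loss blocks B cell development, and myeloid cells also express it. It had 1738, 1933 and 2231 in central and 1770, 1956 and 2234 in endosteal RNA, so that arrays of the same letter were almost level. The log2 change was 0.02 (95% interval -0.38 to 0.41, adjusted p = 0.962), -0.26 after centring on the median and 0.88 with the poly-A scaling. Beside it, 5 of 8 monocyte and macrophage genes were called higher in endosteal RNA and 0 lower (median 1.30). The called ones included C1qa, C1qb, C1qc and Vcam1, the last also counted among the stromal factors for B lymphopoiesis. Adgre1, Csf1r and Cd68 were not called, with log2 changes of 0.05, 0.37 and 0.48. The number called was 3 without central A, central C or endosteal C and 0 with the replicate block. The part of monocytes and macrophages in the Btk values was not tested.

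Vpreb3, a chaperone-like relative of Vpreb1, had 1931, 1982 and 2673 in central and 1017, 911 and 1616 in endosteal RNA. The regions did not overlap (log2 change -0.91, SE 0.27, adjusted p = 0.0835). Fcrla, an intracellular Fc receptor-like protein of B cells, had 828, 998 and 1330 against 359, 485 and 903. Endosteal array C lay above central array A (log2 change -0.91, SE 0.37, adjusted p = 0.177). Cd72, an inhibitory co-receptor, had 2742, 2986 and 4249 against 919, 1184 and 2129, without overlap. Its log2 change of -1.29 (SE 0.35) missed the threshold at an adjusted p of 0.0725.

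Cd37, a tetraspanin of mature B cells that other leukocytes also carry, had 3874, 3156 and 3709 in central and 1831, 1419 and 2101 in endosteal RNA. It was called lower without overlap (log2 change -1.01, SE 0.19, adjusted p = 0.0293), and a further probe set changed by -1.23 (adjusted p = 0.0171 over all probe sets). Here the B array, not A, was lowest in either region. Ly6d, which marks lymphoid progenitors committed to the B lineage, had 3244, 3466 and 4353 against 1671, 1723 and 2898. The regions did not overlap, and the log2 change of -0.85 (SE 0.26) had an adjusted p of 0.0965 and was 0.019 with the poly-A scaling.

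Cd24a, the heat-stable antigen, is carried by immature B cells and also by erythroid cells and granulocytes. Its signals of 43850, 47299 and 45592 in central and 44774, 59821 and 63501 in endosteal RNA overlapped, with endosteal B and C above all central arrays. Endosteal minus central, the log2 change was 0.28 (95% interval -0.14 to 0.71, adjusted p = 0.338), -0.14 after quantile normalisation and 1.15 with the poly-A scaling (adjusted p = 0.00630). Its other probe sets changed by -0.03 and -0.59.

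The transcription factors gave 3 called lower of 9 and 0 higher, with a median of -0.63. Spib, an ETS factor of B cells and plasmacytoid dendritic cells, had 5678, 5644 and 7712 in central and 1342, 1386 and 2324 in endosteal RNA. No other of the 31 genes changed as much, at 3.82-fold (log2 change -1.93, SE 0.27, adjusted p = 0.0141). It was called in 5 of the 6 fits that left out an array, the exception being without central array B (adjusted p = 0.0514). Bach2, a repressor that holds back plasma cell differentiation, had 4891, 5075 and 7356 against 1327, 1360 and 2503. Its log2 change was -1.77 (SE 0.31, adjusted p = 0.0254), another probe set changed by -1.76 and a dimmer one by -0.23. Bach2 was called in 1 of the 6 fits that left out an array, without endosteal array C. The promoter windows of Spib and Bach2 held none of the motifs searched.

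Bcl11a, a zinc finger factor needed for early lymphoid cells, had 1143, 1262 and 1306 in central and 703, 766 and 613 in endosteal RNA. The arrays of a region were close together, and the log2 change of -0.82 (SE 0.14) had an adjusted p of 0.0236. It was 0.041 with the poly-A scaling. Of the 7 probe sets of Bcl11a, the other well expressed ones changed by -0.56 and -0.03. Dimmer ones changed by -0.24, -0.54, -1.10 and 0.02. The mean of all 7 changed by -0.47 (adjusted p = 0.118).

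Ebf1, which opens the B cell programme, had 1024, 961 and 1461 in central and 595, 621 and 720 in endosteal RNA. The regions did not overlap, and the log2 change of -0.80 (SE 0.20) narrowly missed the threshold (adjusted p = 0.0594); it was 0.068 with the poly-A scaling. Stromal and fat cells also express Ebf1, and 1 of its 5 probe sets, a dim one, had 10.8 ± 6.78 in central and 42.0 ± 15.2 in endosteal RNA (SD, n = 3; log2 change 1.11, adjusted p = 0.0716). The remaining probe sets of Ebf1 changed by -0.53, -0.67 and -0.09. Averaged over its 5 probe sets, the dim one included, Ebf1 changed by -0.19 (adjusted p = 0.580). Beside these values, 7 of 8 adipocyte and reticular stroma genes were called higher in endosteal RNA, with summed signals of 7038 to 11663 in central and 31664 to 37723 in endosteal RNA. The number called was 3 without central A, 4 without central B or any 1 of the endosteal arrays, 6 without central C and 0 with the replicate block. Their part in the Ebf1 values was not tested.

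Pax5, the factor of B cell commitment, was read from a probe set with a mean level below the median of all genes. Its signals of 207, 149 and 209 in central and 162, 122 and 105 in endosteal RNA overlapped (log2 change -0.50, 95% interval -1.03 to 0.03, adjusted p = 0.195; 0.37 with the poly-A scaling). Tcf3, which encodes the E2A proteins, had 760, 819 and 972 against 646, 429 and 668, without overlap (log2 change -0.56, adjusted p = 0.160; 0.31 with the poly-A scaling). Foxo1, which drives Rag and Il7r transcription, had 756, 948 and 1055 against 511, 499 and 779. Only endosteal array C reached the central range (log2 change -0.63, adjusted p = 0.142; 0.24 with the poly-A scaling).

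Lef1, a Wnt pathway factor of pro-B cells and T cells, had 62.8, 159 and 176 in central and 72.3, 146 and 124 in endosteal RNA. Array A was lowest in both regions, and the log2 change of -0.14 had a 95% interval from -1.18 to 0.91 (adjusted p = 0.863). Sox4, which supports pro-B cells and is expressed in many other cells, had 3859, 4752 and 5990 against 4253, 3911 and 4558 (log2 change -0.18, 95% interval -0.66 to 0.30, adjusted p = 0.601). These Sox4 values are from the brightest of 8 probe sets. Dimmer ones with mean central signals from 396 to 870 changed by -0.61, -0.49, -0.62 and -1.35. Those with mean central signals from 6.37 to 69.2 changed by 0.38, -0.39 and -0.09. Taking all 8 together gave Sox4 a log2 change of -0.42 (limma, adjusted p = 0.279). When centred on leukocyte genes, the brightest probe sets of Lef1 and Sox4 changed by 0.24 and 0.19. With the poly-A scaling they changed by 0.73 and 0.69.

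Within each region the 31 genes moved together from array to array. Central array A held the lowest of the 3 central values for 26 genes and central array C the highest for 25. Endosteal array A held the lowest endosteal value for 20 and endosteal array C the highest for 23. Array C lay above array A in both regions for 27 of the 31 genes, against 29.3% of all genes. Across the 31 genes, an endosteal array's deviations from its region mean correlated with those of the central array of that letter at 0.68 for A, 0.56 for B and 0.72 for C, against 0.05, 0.04 and 0.01 over all genes and 0.26, 0.13 and 0.10 over genes above the median level. These are correlations across genes, which are not independent replicates, and the 3 deviations of a gene within a region sum to 0.

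**Figure D4:**
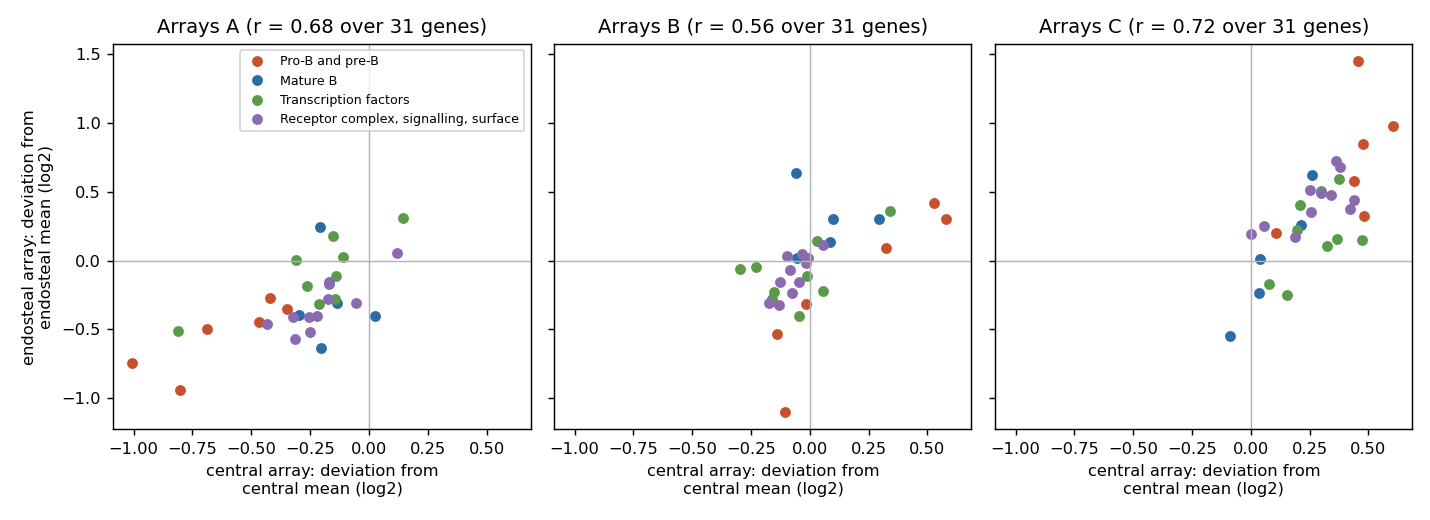
Deviation of each of the 31 genes from its region mean on the log2 scale, endosteal array (vertical) against central array (horizontal), for letters A, B and C, coloured by role. Most genes lie below 0 in both regions for A and above 0 in both for C, with Vpreb1 and Igll1 among the lowest for A.

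The early genes show how wide these shared deviations were. For Vpreb1 the endosteal array minus the central array of the same letter gave -0.42 (A), -0.78 (B) and -0.83 (C), an SD of 0.23, where the SD between arrays of a region was 0.77. For Dntt these differences were -0.50, -0.97 and -0.60, with an SD of 0.25 against 0.55. For Rag2 they were -0.89, -1.88 and 0.11, with an SD of 0.99 against 0.97, so that it did not follow. With the replicate block the adjusted p was 0.110 for Vpreb1, 0.113 for Dntt, 0.0794 for Rag1, 0.0913 for Il7r and 0.260 for Igll1, and 0 of the 6 were called. The correlations over all genes do not show that the letters pair the samples.

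The other genes of B cell signalling and of late B cells gave 15 called lower of 31 measured and 1 higher, with a median of -0.67. The 4 with the largest change were Irf4, a factor of receptor signalling and plasma cells (-1.69, adjusted p = 0.04996), Ikzf3, which encodes Aiolos (-1.48, adjusted p = 0.0277), Pou2af1, the octamer coactivator (-1.27, adjusted p = 0.0479), and Fcmr, the IgM Fc receptor (-1.14, adjusted p = 0.0310). Irf4 went from a signal of 1275 ± 421 to 400 ± 202 and Pou2af1 from 5040 ± 1271 to 2098 ± 646 (SD, n = 3). Ighm, the heavy chain of IgM, had 19501 ± 2251 and 9737 ± 2819 and did not pass (log2 change -1.04, adjusted p = 0.0514). The gene called higher was Cd81, a tetraspanin of the co-receptor that many cells carry, at 0.79 (adjusted p = 0.0157). The list's median was 0.19 with the poly-A scaling where 0 members were called lower and 3 higher, and 2 were called lower when centred on leukocyte genes. Of all genes 0.209% were called lower and 59.0% higher with the poly-A scaling, and 1.27% lower on the leukocyte scaling. The number called lower was 3 without central A, 0 without central B, 1 without central C, 3 without endosteal A, 2 without endosteal B, 7 without endosteal C and 0 with the replicate block.

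**Figure D5:**
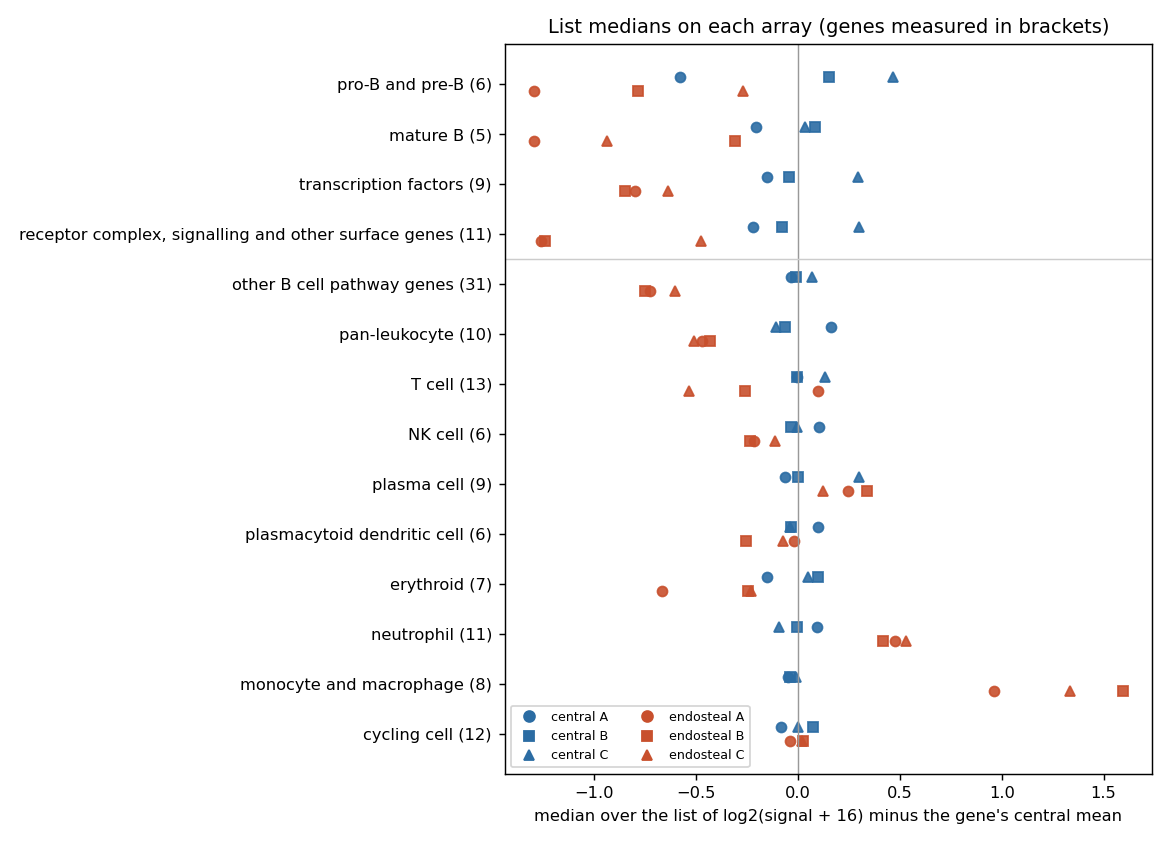
Median over each list of log2(signal + 16) minus the gene's central mean (horizontal axis), for each array, with the number of measured genes in brackets. All 3 endosteal medians lie below the 3 central ones for the mature, transcription factor and receptor groups, and endosteal C (-0.27) lies above central A (-0.58) for the pro-B and pre-B group.

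Genes of other cells were read on the same arrays, and with the replicate block 0 genes were called in the leukocyte, T cell, plasmacytoid dendritic, neutrophil, erythroid and cycling cell lists. Of 10 genes common to leukocytes, 3 were called lower and 0 higher, with a median of -0.51 and summed signals of 153350 to 180106 in central and 131521 to 135838 in endosteal RNA. The number called lower was 1 without endosteal A and 0 without any 1 of the other arrays, and with the poly-A scaling 0 were lower and 4 higher (median 0.35). On the poly-A scaling 59.0% of all genes were called higher, and the median of all genes was 0.97. T cells also use Il7r and Lef1, and their precursors Rag1, Rag2 and Dntt. Of 13 T cell genes 0 were called lower and 1 (Lat) higher, with a median of -0.13 and summed signals of 3288 to 3554 and 3448 to 3803. With the poly-A scaling 3 were higher (median 0.73), and the median was 0.093 without endosteal C. Ptcra, which defines early T cells, had mean signals of 19.5 and 34.8. Of 6 plasmacytoid dendritic cell genes, which bear on Spib, 0 were called lower and 1 higher (Cox6a2, which skeletal muscle also expresses; median -0.09), and 4 were higher with the poly-A scaling (median 0.77). Without endosteal C 1 was higher and 1 lower, and without any 1 of the other arrays 0 were called.

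Neutrophils and erythroid cells bear on Cd24a. Of 11 neutrophil genes 4 were called higher and 2 lower, with a median of 0.55. These counts depended on the setting, with 0 higher and 2 lower after quantile normalisation (median 0.030) and after median centring (median 0.28), and 9 higher and 0 lower with the poly-A scaling (median 1.42). Without endosteal A 2 were higher and 0 lower, and without any 1 of the other arrays 0 were called. Of 7 erythroid genes 0 were called (median -0.37), and 2 were higher with the poly-A scaling (median 0.49). Of 12 genes of cycling cells, such as large pre-B cells and many other marrow cells, 0 were called (median 0.02), while 3 were lower after median centring (median -0.26) and 10 higher with the poly-A scaling (median 0.88). Of all genes 11.1% were called lower after median centring (median -0.17) and 59.0% higher with the poly-A scaling (median 0.97). The part of these lists in the B cell values was not tested.

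Genes of plasma cells, the end stage of the lineage, gave 2 called higher and 1 lower of 9, with a median of 0.21. After centring on the median 1 was higher and 1 lower (median -0.07), when centred on leukocyte genes 4 were higher and 0 lower (median 0.58), and with the poly-A scaling 6 were higher and 0 lower (median 1.07). Of all genes 20.6% were called higher on the leukocyte scaling (median 0.47) and 59.0% on the poly-A scaling (median 0.97). Sdc1, the plasma cell surface proteoglycan that epithelial and stromal cells also make, went from 254 ± 66.1 to 697 ± 43.1 (SD, n = 3; log2 change 1.43, adjusted p = 0.0157). Prdm1, the factor that ends the B cell programme, went from 106 ± 19.6 to 240 ± 60.1 (log2 change 1.05, adjusted p = 0.0445). The gene called lower was Irf4. With the replicate block 0 of the 9 were called. The number called higher was 0 without central A or endosteal A, 1 without central B, central C or endosteal B, and 2 without endosteal C.

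Stromal factors known to support B lymphopoiesis stood the other way, with 5 of 8 called higher and 0 lower and a median of 1.68. Il7 had a low signal of 37.5 ± 20.9 in central and 211 ± 26.0 in endosteal RNA (SD, n = 3) and was called higher (adjusted p = 0.0197). The size of its change depends on the pseudocount, at 2.17 on the log2(signal + 16) scale and 2.49 as the log2 ratio of the mean signals. Igf1 changed by 1.80 (adjusted p = 0.0163), and Kitl, Cxcl12 and Vcam1 by 2.69, 2.64 and 1.56. The number called was 3 without endosteal B and 1 with the replicate block. The labelled tissue bears on all of these values. The summed signal of 5 osteoblast genes was 1541 to 1978 on central and 61132 to 74981 on endosteal arrays, and that of 8 skeletal muscle genes was 333 to 712 and 49435 to 106526. In such bulk RNA, fewer B cells and less B cell RNA in each cell cannot be told apart, and the part of the added bone and muscle RNA in the lower B cell values was not tested.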

How the data were processed

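RNA of 6 samples, 3 central and 3 endosteal, was hybridised to Affymetrix mouse arrays, 1 array a sample, after one-cycle labelling of 2 micrograms of total RNA, per the labels' protocols. The authors deposited linear probe set signals, an intensity for each of 45101 probe sets. The tool that summarised the probes is not given in the sources used here. From the values, each array appears scaled by 1 factor, since the mean after trimming 2% at each end was 500.003 on every array. Median signals ran from 97.2 to 131, and 15.9% to 20.1% of values were below 16. Central arrays correlated at 0.971 to 0.973 and endosteal arrays at 0.944 to 0.946 across genes. Precision is limited by the number of arrays.

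Gene names came from the platform annotation, matched to RefSeq by gene identifier (GRCm38.p6): 34945 named 1 gene, 932 several, 9160 none here, and 64 were controls. For each of 18193 genes the brightest probe set on average was used. Endosteal and central arrays were compared on log2(signal + 16) with limma 3.58.1 in R 4.3.3, two-sided, region as the only term, Benjamini-Hochberg adjustment over all genes and a threshold of 0.05. The method was checked on simulated data. Means are given with the SD over 3 arrays, and limma's SE and 95% interval.

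The genes and lists were chosen with earlier results of these data known, so no set test is given, and the lists are described by counts and medians. The text names all 31 genes and, for other lists, at most 4 called members with the largest change and any member a count turns on. The alternatives were pseudocounts of 1 and 64, the mean of probe sets, 4 other scalings, genes above the median level, an intensity trend, the letter as a fixed or random block, and leaving out each array. The 3 mice gave 6 samples whose letters recur in both regions. If a letter marks a mouse the design is paired, and a fit with region as the only term ignores that. With the letter as a block 2 of the 9 calls remained. Same-letter deviations correlated at 0.05, 0.04 and 0.01 across all genes (0.26, 0.13 and 0.10 among the more highly expressed genes), so pairing was not taken as shown, and the replicate block is given beside the counts of genes called that it changes. Promoter windows are RefSeq's. Some genes of the lists are not reported here.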

Additional observations from a re-analysis of the deposited data

How the results depend on the processing

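The 9 genes called lower became 16 after centring arrays on their median, 19 among genes above the median level (27 of the 31 genes), 20 with an intensity trend, 3 when centred on leukocyte genes and 2 with the replicate block. With the poly-A scaling 2 were lower and 2 higher. Leaving out 1 array gave 0 to 10 lower. The other alternatives (pseudocounts 1 and 64, the mean of probe sets, quantile normalisation, the random block) gave 7 to 12. The share of all genes called lower moved too, from 4.02% to 11.1% after median centring and 9.31% with an intensity trend. It was 19.0% among genes above the median level, 1.27% on the leukocyte scaling and 0.0330% with the replicate block. On the poly-A scaling 0.209% of all genes were lower and 59.0% higher. Leaving out 1 array gave 0.555% to 1.69% lower, and the other alternatives 2.73% to 6.07%. The median change of the 31 genes was -0.48 on the leukocyte scaling and 0.013 on the poly-A scaling, where that of the pro-B and pre-B genes was 0.085, that of the transcription factors 0.24 and that of Bcl11a 0.041. It ran from -1.04 to -0.66 when 1 array was left out. Each combination of a gene and an alternative was counted as an entry. In 451 entries direction and side of the threshold were kept, or the gene was called in neither case. In 64 entries a called gene fell short, in 38 a gene passed anew and in 1 a called gene turned. The log2 ratio of the mean signals, which has no test, was counted for each of the 31 genes as kept unless a called gene turned. The random block ended 0 of the 9 calls. Of all genes called, 66.3% were higher on the deposited scale, 54.6% after quantile normalisation, 32.4% after median centring, 94.2% on the leukocyte and 99.6% on the poly-A scaling. Levels below the median of all genes, as for Rag2, Cr2, Pax5 and Lef1, limit what a change can show, and 3 arrays a region give an exact permutation test no p below 0.10.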
